A study of Mus musculus with 2 samples.

Results

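The genes described here are 9 regulators of G protein signalling (RGS) of the mouse: Rgs1, Rgs2, Rgs3, Rgs10, Rgs12, Rgs14, Rgs16, Rgs18 and Rgs19. They were selected on their measured values in these libraries, out of 21 genes numbered Rgs1 to Rgs22 and 21461 nuclear protein-coding genes in the tables, so their levels are given as a description with no test. The least abundant gene selected, Rgs16, had 0 expected counts in replicate 1 and 9 in replicate 2. The nearest gene left out, Rgs8, had 2 and 0, and the other 11 had 0 in both libraries.

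The cells were megakaryocyte-erythroid progenitors (MEP), bone marrow cells named for the red cell and platelet lineages, from adult male C57BL/6J mice aged 5 to 6 weeks. No allele or treatment is given in the labels. There was 1 group of 2 libraries, each made with the ScriptSeq kit from 100 ng of RNA after removal of ribosomal RNA. The libraries are numbered as biological replicates 1 and 2 and have separate biosample entries but a common donor entry, so nothing says that the cells came from separate mice, and an SD over them may be partly technical. With 1 group there was no comparison between conditions, and differences between the libraries were described by size with no p-value.

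An RGS protein binds the GTP-bound alpha subunit of a heterotrimeric G protein and speeds the hydrolysis of GTP, which shortens the signal from a G protein-coupled receptor. The family is divided by sequence into subfamilies. R4 proteins are small and hold little beyond the RGS domain, R12 proteins include large scaffolds, and RZ proteins carry a cysteine-rich stretch near the amino end. In marrow cells and platelets, receptors for chemokines, thrombin and ADP signal through the G proteins on which RGS proteins act.

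The libraries held 39919884 expected counts in replicate 1 and 48043010 in replicate 2. An expected count is an estimated number of sequenced fragments, and TPM is a gene's share of all transcripts of a library, corrected for length. Nuclear protein-coding genes held 25.55% of the TPM in replicate 1 and 20.57% in replicate 2. Ratios between libraries were therefore taken after these genes were rescaled to a sum of 1000000 in each. The erythroid markers that check the label had a summed TPM of 1475.3 and 1459.5 over 11 genes. Most of it came from Car1 (723.14 and 707.62) and Car2 (449.01 and 427.37), while Slc4a1 had 0.07 and 1.47. Of the 11, 10 had a TPM of at least 1 in each library. The 13 megakaryocyte and platelet genes summed to 72.14 and 28.75.

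Much of what the tables say about 3 of the RGS genes rests on transcripts that do not encode the full protein, and their distinguishing bases are shown first. All lie on the minus strand and were read from the GENCODE M21 transcripts (build GRCm38), whose lengths equal those in the deposited tables. Capitals mark bases absent from the coding transcript of the same gene. The first set shows why 2 abundant Rgs1 transcripts are annotated as not coding: Rgs1-203 (chr1:144247795-144247935) runs from the end of exon 3 into the intron and stops there, and Rgs1-204 (chr1:144248594-144248915) carries bases after exon 1 that the coding transcript Rgs1-208 lacks.
Rgs1-203: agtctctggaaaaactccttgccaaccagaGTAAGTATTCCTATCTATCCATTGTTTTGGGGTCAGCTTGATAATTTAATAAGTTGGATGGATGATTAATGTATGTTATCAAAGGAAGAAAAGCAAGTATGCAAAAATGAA
Rgs1-204: aaggccaaagactttATAAGGGGAACTCTT

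The added bases of Rgs1-204 bring in the stop codon TAA at chr1:144248605-144248607, after 46 codons, where Rgs1-208 reads 209 codons. The next set shows the same kind of difference in Rgs2. Rgs2-201 (chr1:144002937-144002966) reads on from exon 2 into an intron of 110 bases that Rgs2-202 (chr1:144002827-144002966) removes. It meets the stop codon TAA at chr1:144002948-144002950 after 71 codons, against 211 in Rgs2-202.
Rgs2-201: gcaaacttttatcaaGTAAGTTTCGGATCC
Rgs2-202: gcaaacttttatcaagccttctcctgagga

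The last sequence is the first exon of Rgs10-204 (chr7:128393530-128393685), a processed transcript that begins inside the gene. None of its 156 bases is in Rgs10-201, which reads 181 codons.
Rgs10-204: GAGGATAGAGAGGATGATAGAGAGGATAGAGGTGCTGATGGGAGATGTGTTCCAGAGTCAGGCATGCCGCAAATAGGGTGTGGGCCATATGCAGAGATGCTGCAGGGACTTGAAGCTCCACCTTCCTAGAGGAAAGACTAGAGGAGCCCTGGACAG

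Of the 9 RGS genes, 6 had a TPM of at least 1 in each library: Rgs1, Rgs10, Rgs18, Rgs2, Rgs12 and Rgs19. Among all nuclear protein-coding genes, 8452 of 21461 (39.4%) did so, and since the RGS genes were chosen by their levels, nothing is read from that comparison. The median of the mean TPM over the 9 genes was 8.315, the value of Rgs12. It was 0.2 over all protein-coding genes and 8.125 over those at a TPM of 1 in both libraries.

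Rgs1 is an R4 member best known from lymphocytes, where it limits signalling from chemokine receptors. It lies at chr1:144242296-144249242 on the minus strand (ENSMUSG00000026358.9). Its TPM was 181.3 in replicate 1, from 14207 counts, and 26.44 in replicate 2, from 4296 counts (mean 103.87 ± 109.5, SD, n = 2). The authors' intervals, whose level is not stated, ran from 173.93 to 184.74 and from 24.659 to 28.007. The libraries therefore lay far apart, and the SD exceeded the mean. By deposited TPM, Rgs1 ranked 193 among the protein-coding genes of replicate 1 and 1289 among those of replicate 2.

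Rgs18 is an R4 member known for its high level in megakaryocytes and platelets. The gene (ENSMUSG00000026357.3) lies at chr1:144752683-144775435, minus strand. Its TPM was 23.75 in replicate 1 (3921 counts) and 8.69 in replicate 2 (2108 counts), a mean of 16.22 ± 10.649 (SD, n = 2). Replicate 1 was again the higher library, and the authors' intervals of 22.718 to 24.18 and 8.2455 to 8.9757 did not overlap. In bulk RNA, fewer cells of a type and less RNA in each cell cannot be told apart, here or for any gene below.

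Rgs2, an R4 member with a preference for alpha subunits of the Gq class, lies at chr1:143999338-144004161, minus strand (ENSMUSG00000026360.5). Its TPM was 8.6 in replicate 1 (1345 counts) and 11.9 in replicate 2 (1971 counts), with a mean of 10.25 ± 2.3335 (SD, n = 2). Here replicate 2 was the higher library. The authors' intervals of 7.7473 to 9.4578 and 11.035 to 12.689 stood apart.

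The other 2 selected R4 genes were low. Rgs3 (ENSMUSG00000059810.14, chr4:62559847-62704001, plus strand), which acts on Gi and Gq subunits, had a TPM of 0.77 from 94 counts and 1.07 from 213 counts. Its mean was 0.92 ± 0.21213 (SD, n = 2) and the authors' intervals, 0.64575 to 1.2981 and 0.89279 to 1.6777, overlapped. Rgs16 (ENSMUSG00000026475.7, chr1:153740349-153745468, plus strand), a gene induced in activated lymphocytes, had 0 counts in replicate 1, which allows a TPM of up to 0.015529 at the floor of 3 counts. In replicate 2 its 9 counts gave a TPM of 0.03, with an interval of 0.015365 to 0.057471. The remaining R4 genes had 0 counts apart from Rgs8, whose TPM is listed at 0 in both libraries.

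The R12 subfamily was represented by all 3 of its genes. Rgs10, a small R12 protein present in platelets and in microglia, lies at chr7:128373621-128418758, minus strand (ENSMUSG00000030844.7). Its TPM was 31.91 in replicate 1 (1914 counts) and 45.3 in replicate 2 (2938 counts), a mean of 38.605 ± 9.4682 (SD, n = 2). Replicate 2 was higher, and the authors' intervals of 30.702 to 36.192 and 43.026 to 49.239 did not overlap. A transcript gene on the same strand within Rgs10, Gm15503, had 24 and 31 counts, and where they overlap the reads of both genes may have been divided between them.

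Rgs12, a large scaffold with binding sites for Ras proteins and for inactive Gi subunits, lies at chr5:34949445-35039644, plus strand (ENSMUSG00000029101.10). Its TPM was 10.08 in replicate 1 (2169 counts) and 6.55 in replicate 2 (2547 counts), with a mean of 8.315 ± 2.4961 (SD, n = 2). Replicate 2, the larger library, had more counts but the lower TPM, and its estimated effective length was longer by a factor of 1.2272. These counts are not scaled for library size, so no rise is read from them. Rgs14, the relative of Rgs12 with the same kinds of binding sites, lies at chr13:55369732-55384687, plus strand (ENSMUSG00000052087.9). Its TPM was 0.49 from 36 counts and 0.69 from 136 counts, a mean of 0.59 ± 0.14142 (SD, n = 2), and its effective length differed by a factor of 1.8242.

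Rgs19, the RZ member that binds Gi subunits and is anchored to membranes, lies at chr2:181688419-181693977, minus strand (ENSMUSG00000002458.9). Its SD was the smallest relative to the mean among the 6 genes at a TPM of 1, with 5.47 in replicate 1 (636 counts) and 5.1 in replicate 2 (826 counts), a mean of 5.285 ± 0.26163 (SD, n = 2). The authors' intervals of 5.3853 to 6.7027 and 4.9155 to 5.8104 overlapped.

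**Figure D1:**
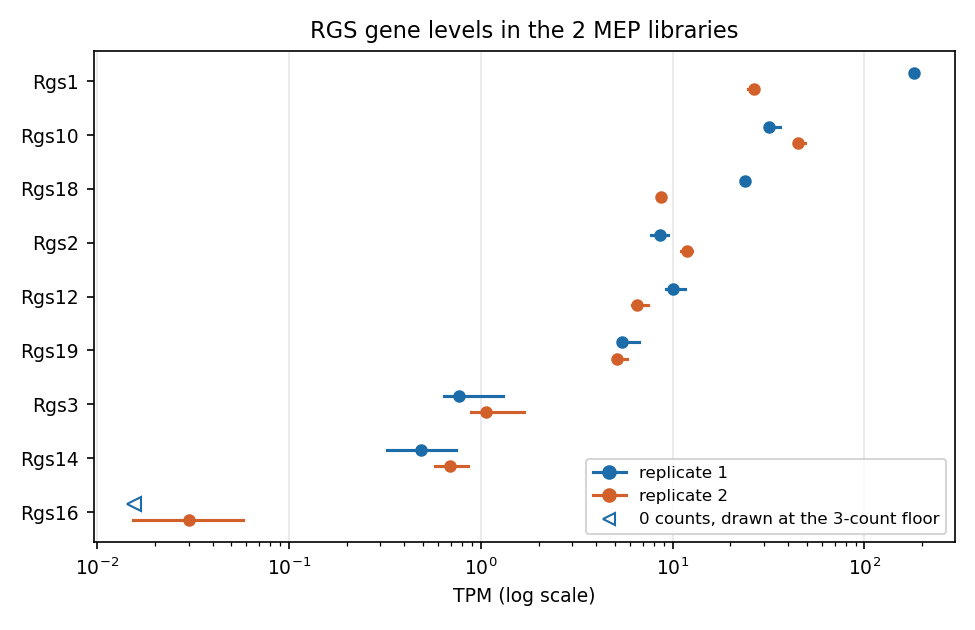
TPM on a log axis for the 9 RGS genes in the 2 libraries, ordered by mean. Points are the deposited TPM, lines the authors' interval, and the open triangle the floor of 3 counts for Rgs16 in replicate 1. Rgs1 spans 26.44 to 181.3 TPM, while the values of Rgs19 lie at 5.47 and 5.1.

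By mean TPM the order was Rgs1, Rgs10, Rgs18, Rgs2, Rgs12, Rgs19, Rgs3, Rgs14 and Rgs16. The values of the 2 libraries overlapped between Rgs1 and Rgs10, between Rgs18 and Rgs2, and between Rgs2 and Rgs12, so these neighbours are not ordered beyond their spread. In replicate 2 Rgs10 was above Rgs1 and Rgs2 above Rgs18, and in replicate 1 Rgs12 was above Rgs2. The values of Rgs10 and Rgs18, of Rgs12 and Rgs19, of Rgs19 and Rgs3, of Rgs3 and Rgs14, and of Rgs14 and Rgs16 did not overlap. For Rgs3 and Rgs14, however, the authors' intervals in replicate 1 did, at 0.64575 to 1.2981 and 0.32331 to 0.74282.

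Summed over the subfamily, the TPM of the R4 genes was 214.42 in replicate 1 and 48.13 in replicate 2. This was 81.724% and 45.504% of all RGS TPM. The 3 R12 genes had 42.48 and 52.54, or 16.191% and 49.674%. The RZ genes had 5.47 and 5.1, all from Rgs19, or 2.0848% and 4.8218%. The 4 genes of the R7 subfamily, known from neurons and the retina, had 0 counts in both libraries. The 3-count floor of the 11 RGS genes at 0 lay between 0.0073476 and 0.034278 TPM in replicate 1 and between 0.0049922 and 0.023346 in replicate 2. The R4 sum was thus the larger in replicate 1 and the R12 sum in replicate 2. Rgs1 alone made up 181.3 and 26.44 of the R4 sum.

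The transcript tables changed this order. Rgs1 had 2 transcripts annotated as protein coding among 9, and only Rgs1-208 of the 2 had counts. The TPM of Rgs1-208 was 2.28 in replicate 1 and 0.39 in replicate 2, which made up 1.2577% and 1.475% of the gene's TPM. By expected counts its share was 5.2961% (752.42 counts) and 4.4281% (190.23 counts). Nearly all of the signal of Rgs1 was therefore assigned to transcripts that do not encode the full protein.

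The largest part of the Rgs1 TPM came from Rgs1-203, the retained-intron transcript of 414 bases shown above. Its TPM was 114.15 in replicate 1 and 9.99 in replicate 2, or 62.965% and 37.784% of the gene. Because it is short, this needed few reads, and its share of the counts was 14.216% and 5.9879%. By counts the leading transcript was instead Rgs1-205, with 41.432% and 37.126% of the counts and a TPM of 11.47 and 2.11. It is a retained-intron transcript of 5843 bases at chr1:144243213-144249055. That span equals its length, so it is an unspliced stretch of the gene with no intron removed.

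Rgs1-204, the transcript with the early stop codon, is annotated as a target of nonsense-mediated decay, the pathway that removes messages with a premature stop. Its TPM was 50.62 and 8.69, and it held 35.948% of the counts in replicate 1 and 29.989% in replicate 2. Over all its types, 55.649% of the Rgs1 counts in replicate 1 and 43.974% in replicate 2 fell to retained-intron transcripts. A further 39.055% and 51.598% fell to transcripts of the decay class. Total RNA holds unspliced as well as finished transcripts, and the division of reads among overlapping transcripts is an estimate. The part of either in these shares was not tested.

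A coding share this low was uncommon but not limited to Rgs1. The comparison set was 5190 protein-coding genes at a TPM of 1 in both libraries that had both coding and non-coding transcripts. Coding transcripts held under 50% of the gene's TPM in 17.5% of them in replicate 1 and 17.4% in replicate 2, and under 50% of the counts in 8.15% and 8.03%. The median coding share was 85.95% and 88.14% of TPM, and 93.71% and 94.83% of counts. By TPM, 47 genes in replicate 1 and 67 in replicate 2 had a share at or below that of Rgs1, counting Rgs1 itself.

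Among the other RGS genes, the count share and the TPM share gave different pictures. For Rgs2, coding transcripts held 70.198% of the TPM in replicate 1 but 91.593% of the counts. In replicate 2 they held 31.933% of the TPM and 72.518% of the counts. The coding Rgs2-202, of 3021 bases, had a TPM of 4.64 and 3.8. Rgs2-201, of 763 bases, had 1.25 (authors' interval 0.52018 to 2.1046) and 5.28 (4.4616 to 6.0102). Replicate 2 thus had more of the transcript that keeps the intron, and its estimated effective length of Rgs2 was smaller by a factor of 0.71897.

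For Rgs12, coding transcripts held 47.321% and 56.728% of the TPM and 88.154% and 92.113% of the counts. Its main coding transcript Rgs12-201, of 5472 bases, had a TPM of 3.54 and 2.89. The processed transcript Rgs12-213, of 753 bases, had 5.31 and 2.83. With so short a transcript, 11.846% and 7.8865% of the counts made up 52.679% and 43.272% of the TPM.

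Rgs10 was assigned to Rgs10-201 alone in replicate 1, with a TPM of 31.91. In replicate 2 Rgs10-201 had 26.92, and Rgs10-204 had 16.51 (authors' interval 13.635 to 19.328) from 519.27 counts, where replicate 1 had 0. The higher gene TPM of Rgs10 in replicate 2 was thus in Rgs10-204, while the coding sum was 31.91 and 27.75 by deposited TPM. After rescaling, the log2 ratio of the coding sum, replicate 2 over replicate 1, was 0.08, so no fall in it is read. Rgs19 was all coding in replicate 1 and 88.235% coding by TPM in replicate 2. Its second transcript, Rgs19-202, had 1.52 TPM in replicate 1 and 0.02 in replicate 2. Rgs18 has 1 annotated transcript, of the coding class.

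The 2 low genes Rgs3 and Rgs14 had little coding signal. Rgs3 had a coding TPM of 0.51 in replicate 1, from 27.13 counts, and 0 counts on coding transcripts in replicate 2. The only coding transcript of Rgs14 had 0 counts in both libraries, and its 36 and 136 counts fell to a retained-intron and a decay-class transcript.

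**Figure D2:**
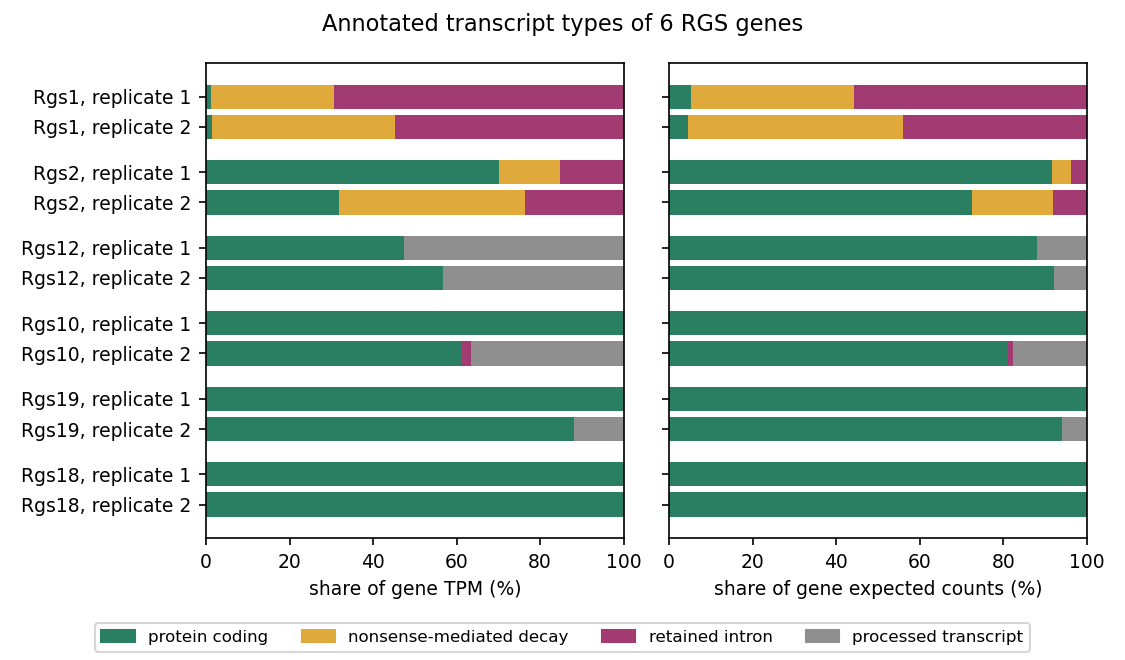
Share of each gene's TPM (left, %) and of its expected counts (right, %) by annotated transcript type, for the 6 RGS genes at a TPM of 1 in both libraries. Each bar is 1 library. Coding transcripts hold 1.2577% and 1.475% of the Rgs1 TPM, and all of Rgs18.

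With coding transcripts alone the order by mean TPM became Rgs10 at 29.83, Rgs18 at 16.22, Rgs19 at 4.985, Rgs2 at 4.915, Rgs12 at 4.24 and Rgs1 at 1.335. Rgs3 had 0.255, Rgs16 0.015 and Rgs14 0. The values of the 2 libraries overlapped among Rgs19 (5.47 and 4.5), Rgs2 (6.03 and 3.8) and Rgs12 (4.77 and 3.71). These 3 are therefore not ordered beyond their spread. Neither are Rgs1 and Rgs3, Rgs3 and Rgs16, or Rgs16 and Rgs14. This sum was chosen after the transcript values were seen. The R12 genes then held 49.09% of the coding RGS TPM in replicate 1 and 64.375% in replicate 2, against 43.589% and 26.417% for the R4 genes.

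The transcript with the highest TPM was the same in both libraries for 4 of the 6 genes, Rgs1, Rgs10, Rgs18 and Rgs19. Rgs18 has no alternative. It differed for Rgs2, from Rgs2-202 to Rgs2-201, and for Rgs12, from Rgs12-213 to Rgs12-201. Among 6363 protein-coding genes with several transcripts and a TPM of 1 in both libraries it differed in 27.4%, against 2 of the 5 RGS genes that have several transcripts, too few to set apart from that share. Ranked by counts, a choice made after the data were seen, it was the same for 6 of 6.

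The libraries were then compared by size. The ratio was log2 of the rescaled TPM plus 1 in replicate 2 over that in replicate 1, which understates differences of low genes, and genes were taken with a mean rescaled TPM of at least 5 and at least 20 counts in all. Of 8849 such genes, 5.07% were lower in replicate 2 by over 2-fold and 4.67% were higher, or 449 and 413 genes. By deposited TPM the split was 558 and 147. The 6 RGS genes that passed were those at a TPM of 1 in both libraries, and 2 of them, Rgs1 and Rgs18, were lower past 2-fold while 0 were higher. With expected counts scaled by TMM, a method that centres the ratios of most genes, 3.31% were lower and 2.76% higher, and Rgs1 and Rgs18 were again the 2 past 2-fold among these 6. Since the genes were selected with these values known, nothing is read from the counts.

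For Rgs1 the rescaled TPM was 709.66 in replicate 1 and 128.53 in replicate 2, a log2 ratio of -2.46. On TMM-scaled counts it was -1.93, with an exact binomial 95% interval of -1.99 to -1.90 that covers counting error only. The difference in TPM was larger than that in counts, since the effective length of Rgs1 went from 858.29 to 1208.2 bases as the short Rgs1-203 lost share. On coding transcripts alone the log2 ratio was -1.85. Over the 8 scales run the log2 ratio of Rgs1 lay between -2.73 and -1.85, so the direction held and the size depended on the scale.

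For Rgs18 the rescaled TPM was 92.964 and 42.242, a log2 ratio of -1.12. On TMM-scaled counts it was -1.10 (counting interval -1.19 to -1.04) and on coding transcripts -1.15. With 1 transcript and an almost equal effective length, its log2 ratio lay between -1.35 and -1.05 over the same scales.

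The other 4 genes stayed within 2-fold. Rgs10 had a log2 ratio of 0.81 by rescaled TPM, 0.39 by TMM-scaled counts and 0.08 on coding transcripts. Rgs2 had 0.76, 0.32 and -0.36. The coding sum of Rgs2 included the short Rgs2-204, with 1.39 TPM from 46.21 counts in replicate 1 and 0 in replicate 2. Its coding counts were 1231.9 and 1429.3, not scaled for library size, and replicate 2 was the larger library. No direction on coding transcripts is therefore read from these counts or from the -0.36. Rgs12 had -0.30 by rescaled TPM and 0.01 by TMM-scaled counts, so it had no direction that held. Rgs19 had 0.20 by rescaled TPM and -0.08 by deposited TPM, a scale on which the median of all 8849 genes was -0.27.

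Rgs3, Rgs14 and Rgs16 were below the minimum and are in none of these counts. All 3 had more counts in replicate 2. For Rgs14, with 36 and 136 counts, the log2 ratio was 0.58 by rescaled TPM but 1.04, past 2-fold, on TMM-scaled counts, with a counting interval of 1.16 to 2.27 taken without a pseudocount. For Rgs3 the ratio was 0.63 by rescaled TPM and 0.73 on TMM-scaled counts (0.60 to 1.33), and -1.74 on coding transcripts, which had 27.13 counts in replicate 1 and 0 in replicate 2. For Rgs16, with 0 and 9 counts, the lower end of the counting interval was 0.76.

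**Figure D3:**
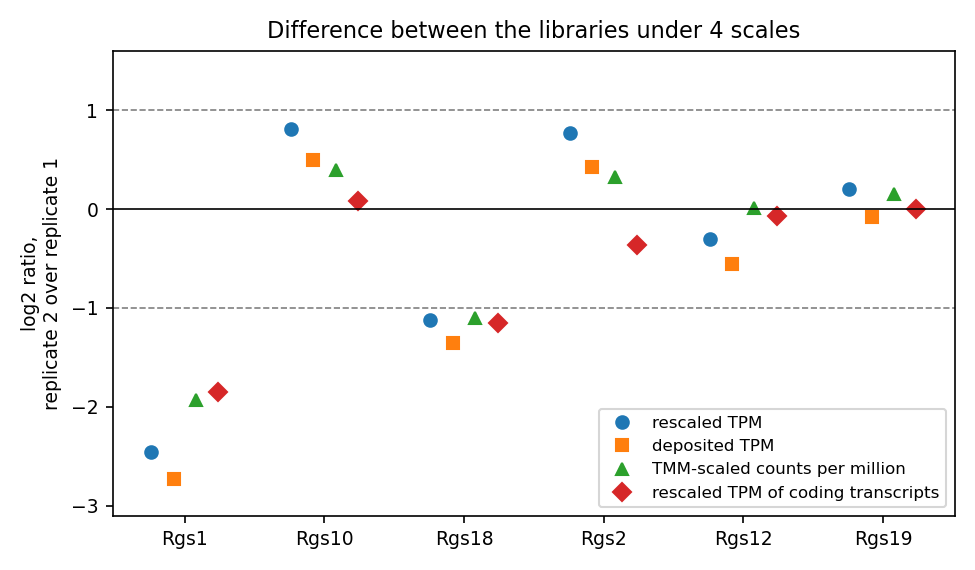
Log2 ratio of replicate 2 over replicate 1 for the 6 RGS genes tested, on 4 scales. Dashed lines mark 2-fold in either direction. Rgs1 and Rgs18 lie below the lower line on all 4 scales, and Rgs2 lies above 0 on 3 scales and at -0.36 on coding transcripts.

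Markers of other cells also differed between the libraries. Of the stem and multipotent markers, 4 of 6 tested were lower in replicate 2 past 2-fold, Cd34, Angpt1, Meis1 and Hoxa9, the last only by TPM. Mecom and Mllt3, also tested, stayed within 2-fold, at log2 ratios of 0.38 and 0.58, or -0.26 and 0.04 by TMM-scaled counts. The summed TPM of the 10 stem and multipotent genes was 108.38 and 49.22. Of the megakaryocyte and platelet markers, Pf4, Itga2b, Treml1 and Plek were lower, 4 of 6. Of the lymphoid and natural killer markers 4 of 5 were higher, Gzma, Klrb1c, Ncr1 and Gimap4, with a summed TPM over 12 genes of 8.78 and 39.13, while Cd3e, Cd4, Cd8a and Ms4a1 were at 0 counts in both. The 11 granulocyte and monocyte markers summed to 77.88 and 131.11, with 2 of 6 lower (Mpo, Ctsg) and 3 higher (S100a8, S100a9, Ngp). The 9 mast cell, basophil and eosinophil markers summed to 9.84 and 3.37, with Cpa3, the only 1 tested, lower. Mcpt8, Mcpt4 and Tpsb2 were at 0 counts. Below the minimum level, Epx (0 and 48 counts) and Cma1 (0 and 26) had counts in replicate 2 only. Prg2, Fcer1a and Ms4a2 had more counts in replicate 1. Of the erythroid markers 0 of 10 were lower and 2, the globin genes Hba-a1 and Hbb-bs, were higher. Marker genes past 2-fold were named after their values were seen. The part of these cells in the values of Rgs1 and Rgs18 was not tested.

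Both genes that differed past 2-fold lie in a cluster of R4 genes on chromosome 1, as does Rgs2. In order along the chromosome, Rgs2, Rgs13, Rgs1, Rgs21 and Rgs18 lie within 776.1 kb, chr1:143999338-144775435, all on the minus strand. Rgs13 and Rgs21, which alternate with the others, had 0 counts in both libraries. The gap between Rgs13 and Rgs1 is 64.9 kb and that between Rgs21 and Rgs18 is 185.0 kb. Genes with and without counts thus alternated. Of the 3 with counts, Rgs1 and Rgs18 were lower in replicate 2 and Rgs2 was higher by its gene total, though not on coding transcripts.

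The protein-coding genes on either side of the cluster had levels of their own. Uchl5, a deubiquitinase gene 191.9 kb from Rgs2, had a TPM of 37.39 and 38.78. Trove2, beyond it, had 1.36 and 0.37. On the other side Brinp3, 1719.3 kb from Rgs18, had 0 counts in both libraries, and the phospholipase gene Pla2g4a had a TPM of 21.94 and 17.41.

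The G protein genes on which RGS proteins act were led by few members. Of 16 alpha subunit genes, 9 were at a TPM of 1 or more in each library and 3 had 0 counts. The highest were Gnas, which stimulates adenylyl cyclase, at 59.705 ± 1.2516 (SD, n = 2), and Gnai2, of the inhibitory class, at 53.325 ± 5.8619. Gnai3, also inhibitory, had 29.115 ± 6.3145 and Gna15, of the Gq class, had 10.565 ± 1.1809. Gna13 had 8.905 ± 1.4213. The highest alpha subunits that RGS proteins of the R4, R12 and RZ groups are known to act on were thus Gnai2 and Gnai3.

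The alpha subunits summed to 194.48 TPM in replicate 1 and 174.06 in replicate 2. After rescaling the direction turned, with 761.25 and 846.11. Of 9 alpha subunits tested, Gnaq was lower and Gna11 higher past 2-fold by rescaled TPM, and 0 by TMM-scaled counts. These 2 genes were named after their values were seen.

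Of 17 beta and gamma subunit genes, 7 were at a TPM of 1 or more in each library. Gnb2 had 39.22 ± 3.281 (SD, n = 2), Gnb1 31.355 ± 3.5002 and Gng5 23.625 ± 11.165. Of 8 tested, Gng11 was lower past 2-fold on either scale and Gnb4 by TMM-scaled counts only, and 0 were higher. Gng11 was named after its values were seen.

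Other proteins hold a related domain, among them receptor kinases and the Wnt scaffold axin. All 14 such genes had counts, and 10 were at a TPM of 1 or more in each library. The TPM of Axin1 was 55.7 in replicate 1 and 8.62 in replicate 2, but counts of 2963 and 3161, and of 10 genes tested it alone was lower past 2-fold by rescaled TPM and none was by TMM-scaled counts. The receptor kinases Grk2 and Grk6 had 18.515 ± 3.1891 and 15.32 ± 0.84853 (SD, n = 2). As with Rgs1, the level per length of Axin1 differed more than its counts, but for Rgs1 the counts differed too.

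Of 9 cofactors and arrestins, 7 reached a TPM of 1, led by Arrb1, an arrestin that ends receptor signalling, at 19.755 ± 1.3223 (SD, n = 2). None of the 7 tested passed 2-fold on either scale. Of 13 effectors, 5 reached a TPM of 1, led by the adenylyl cyclase Adcy7 at 10.155 ± 1.6617. The phospholipase gene Plcb2 was lower in replicate 2, at a TPM of 1.33 against 4.34, and was the only 1 of 5 tested past 2-fold on either scale.

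Of 26 receptors of marrow cells and platelets, 9 were at a TPM of 1 or more in each library and 6 had 0 counts. The thrombin receptor F2r had 22.79 in replicate 1 and 9.09 in replicate 2. Adgrg1, an adhesion receptor, had 17.75 and 12.18, and the ADP receptor P2ry1 had 8.65 and 4.67. Cxcr4, the chemokine receptor that holds progenitors in the marrow, had 6.07 and 6.25. Of 10 tested, 1 was lower (Gpr171) and 1 higher (Ccr2) past 2-fold on either scale, both named after their values were seen.

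**Figure D4:**
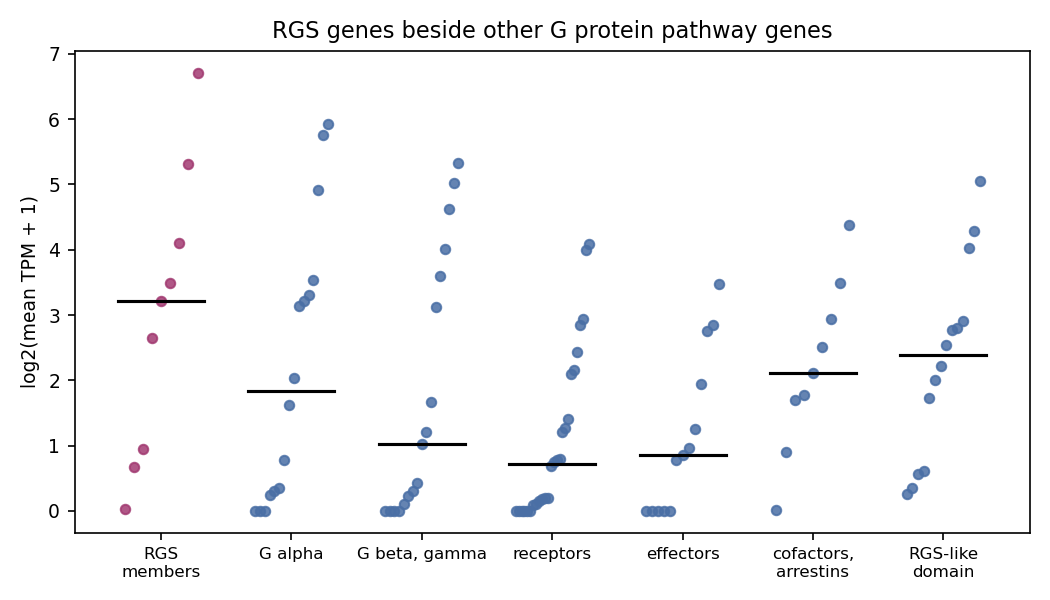
Mean TPM of the 2 libraries, as log2(mean TPM + 1), for the 9 RGS genes and 6 lists of other G protein pathway genes. Each point is 1 gene and the bar is the list's median, which is 8.315 TPM for the RGS genes, chosen by level, and between 0.6475 and 4.23 for the other lists.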

How the data were processed

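Gene and transcript tables of 2 total RNA libraries were used. Per the file headers, the authors' tables hold for each row an expected count (fragments assigned by estimation, not normalized), a TPM scaled over all rows, an FPKM, a posterior mean TPM, an interval of the TPM of unstated level and, for transcripts, an isoform share in percent. Deposited text files name genome build mm10 and GENCODE M4. No source used here names the program that did the counting. Of 43346 gene rows, 42462 were matched without ID version to GENCODE M21 (GRCm38), which gave symbols, transcript types and coordinates, as were 101510 of 103639 transcript rows.

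The RGS genes and every gene list were chosen with earlier results of these data known. Named genes are the RGS genes, up to 5 members of a pathway list with the highest mean TPM among those at a TPM of 1 in both libraries, other RGS genes with a count, and the 2 protein-coding neighbours on each side of the chromosome 1 cluster. Nuclear protein-coding TPM was rescaled to a sum of 1000000 per library. A difference is log2 of the ratio of rescaled TPM plus a pseudocount of 1, called past 2-fold. A related call was tried on simulated counts with counting error only, a smaller pseudocount and ratios centred on their median. Those settings differ from the call used here, so nothing is read from that trial. Expected counts were rounded to whole numbers for TMM factors (edgeR 4.0.16) and size factors (DESeq2 1.42.0), run in R 4.3.3. Other steps used matplotlib 3.10.9, scipy 1.17.1, pandas 2.3.3 and numpy 2.4.6 under Python 3.11.15. Counting intervals are exact binomial at 95%, floors take 3 counts, and both cover counting error only. Alternatives were other units, scales, pseudocounts, filters, detection limits and transcript sums, and each library alone.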

Additional observations from a re-analysis of the deposited data

How the results depend on the processing

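The median level of the 9 RGS genes was 8.315 TPM. It was 35.65 on rescaled TPM and 20.69 in FPKM, units with other totals, and 4.24 on coding transcripts only, a sum added after the data were seen. Leaving out each library in turn gave 6.55 to 8.6. Of the 6 RGS genes above the minimum level, the number past 2-fold was 2 under every scale, pseudocount and unit run, and of all 9 it was 2 by rescaled TPM with no minimum, and the ratios of Rgs1 and Rgs18 changed sign under none of them. Detection at a TPM of 1 in both libraries held for 6 genes, and for 6 to 8 under the other limits and with each library alone. Of 8849 protein-coding genes, those lower and higher past 2-fold were 449 and 413 by rescaled TPM, 558 and 147 by deposited TPM, 293 and 244 by TMM, 252 and 260 with a pseudocount of 5, and 530 and 455 on coding transcripts. The same leading transcript in both libraries was found for 4 genes under every planned setting and for 6 by counts. No paired analysis was possible because the series holds 1 group. Rgs3, Rgs14 and Rgs16 rest on the fewest counts. With 1 library on each side, the spread between mice was not measured.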

Other observations

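Antisense to Rgs16, the gene Gm28513 (chr1:153743552-153749324) had 0 counts in replicate 1 and 28 in replicate 2, where Rgs16 had 0 and 9. Its TPM was 0 and 0.54. No source used here says whether the counting used strand. Without strand, reads of the 2 genes cannot be told apart where they overlap, and the few counts of Rgs16 are uncertain. The antisense gene Gm11209 within Rgs3 and the microRNA gene Mir3097 within Rgs12 had 0 counts in both libraries.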
